A study of Saccharomyces cerevisiae with 4 samples.

Results

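The genes described here are 54 yeast genes of protein glycosylation, from the making of GDP-mannose to the mannosyltransferases of the Golgi. They were taken by symbol from a list of the pathway, with no measured value in the rule, and all 54 were found, each once, among the 7126 features of the table. All 54 passed the filter on low values. Gene expression was measured by RNA-seq in Saccharomyces cerevisiae strain CRY, in 2 manganese-adapted samples and 2 control samples. Every sample has the genotype MATa with the label delta(ade2 his3 leu2 trp1 ura3). The manganese-adapted cells were grown for 120 h in YPD, a rich glucose medium, with 2.5 mM manganese sulfate, and the control cells for 18 h in YPD with an estimated 0.0036 mM manganese, both to the stationary stage. Manganese and culture time therefore cannot be told apart. The comparison asks how the transcripts of cells adapted to a toxic manganese level differ from those of cells grown without added manganese.

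Yeast secretory proteins receive sugars in the endoplasmic reticulum (ER) and the Golgi. In the ER, an oligosaccharide built on the lipid dolichol is moved to asparagine residues by oligosaccharyltransferase, and single mannoses are attached to serine and threonine residues by the Pmt proteins. In the Golgi, mannosyltransferases extend both kinds of chain with mannose from GDP-mannose, which gives the mannoproteins of the cell wall. Many of the Golgi enzymes need Mn2+ as a cofactor, and the ion reaches the Golgi lumen through the pump Pmr1.

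The libraries held 12307870 to 14184276 reads, and the 54 genes had between 170 and 58209 reads in a library. Samples of a group correlated at 0.996 (manganese-adapted) and 0.994 (control) across the 6296 features tested, which are not independent replicates. The labels do not say that the samples of a group came from separate cultures, so the p-values rest on a spread that may be technical. All 4 a-cell markers (MFA1, MFA2, STE2, BAR1) had reads, as a MATa strain should give, and summed to 146 and 143 CPM in manganese-adapted and 166 and 187 CPM in control samples. They went both ways: BAR1 rose, with 56.9 and 56.1 CPM in manganese-adapted and 31.1 and 27.6 CPM in control samples, and STE2, MFA1 and MFA2 fell. The 4 alpha-cell markers also had reads and summed to 138 and 149 CPM in manganese-adapted and 69.5 and 66.7 CPM in control samples; STE3, SAG1 and MF(ALPHA)1 rose and MF(ALPHA)2 fell. Reads were also counted for the genes the label gives as deleted, ADE2, HIS3, LEU2, TRP1 and URA3, at 37.1 to 830.2 CPM in manganese-adapted and 37.0 to 486 CPM in control samples, against that label. The part of these markers in the results was not tested. In these bulk samples fewer expressing cells and less RNA per cell cannot be told apart.

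As a whole, the 54 genes changed about as often as the rest of the transcriptome, in both directions, while the calls differed from step to step, a difference that was not tested. In the manganese-adapted samples 18 members (33.3%) were higher and 17 (31.5%) lower (limma with Benjamini-Hochberg adjustment over all features, adjusted p under 0.05), while 19 did not pass. Over all tested features the shares were 33.6% higher and 34.9% lower, so the members' counts are near the background. At a change of at least 2-fold, 2 members were higher, against 8.28% of all features, and 5 were lower, against 7.21%. The CPM of the 2 groups did not overlap for 49 members, a pattern that 85.7% of all features also show. The members' median log2 fold change was -0.001, against -0.009 for all tested features. A positive log2 fold change means higher in manganese-adapted samples; it is taken on log2(CPM + 1), where CPM is a read count scaled to a common library size, and its error is limma's standard error. A value after length adjustment comes from a fit in which each sample's trend with coding length, over all features that have one, was first taken out.

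**Figure D1:**
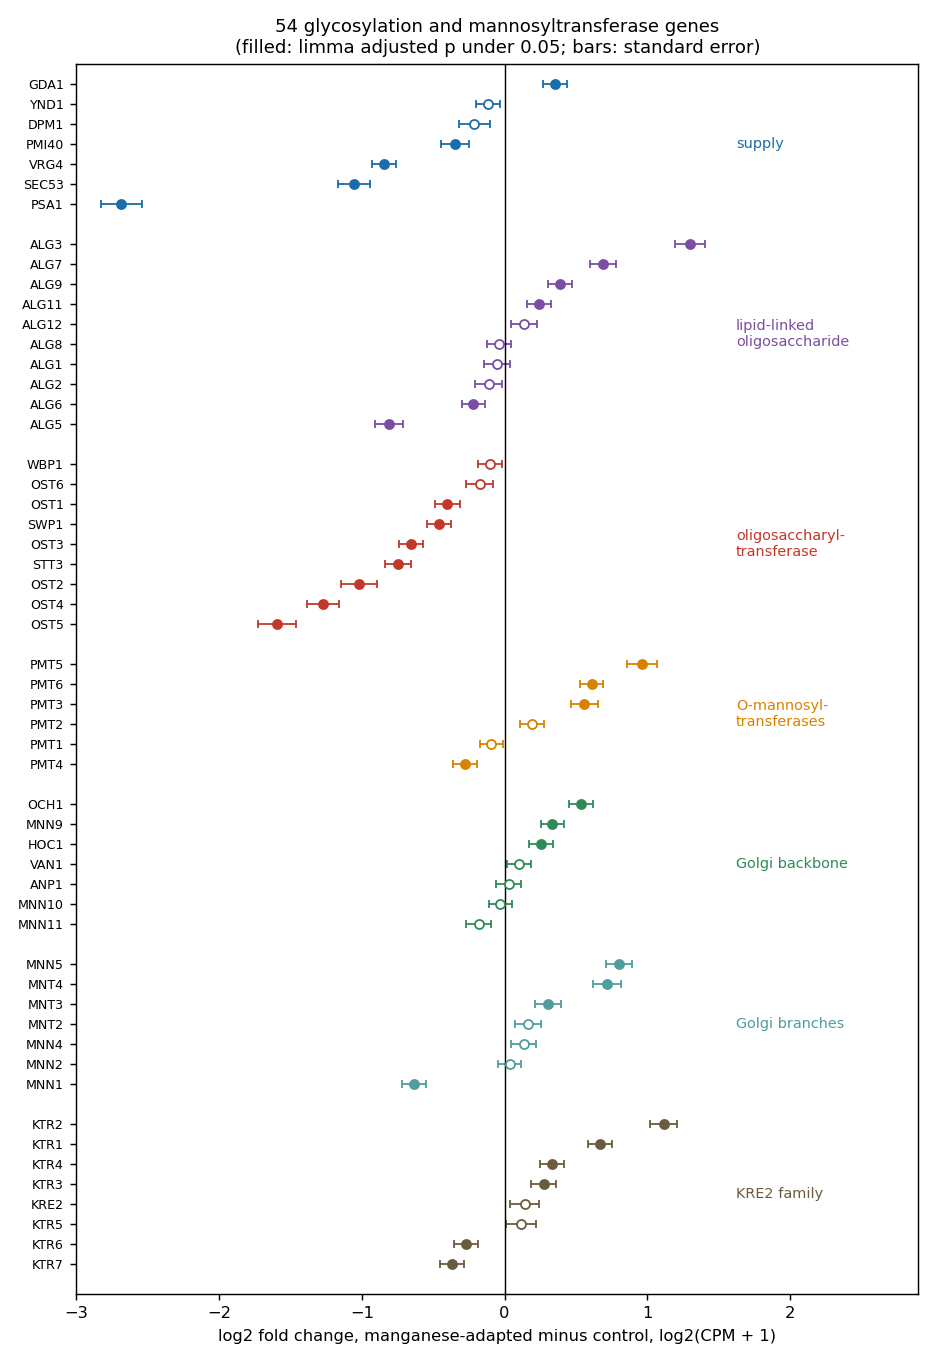
The log2 fold change of each of the 54 genes (horizontal axis, manganese-adapted minus control, on log2 of CPM + 1) is plotted by role, with limma standard errors over 2 samples per group. Filled points passed an adjusted p of 0.05. PSA1 stands lowest at -2.68, and ALG3 (1.30) and KTR2 (1.12) stand highest. All 9 oligosaccharyltransferase subunits lie below 0, of which WBP1 and OST6 did not pass.

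One gene dominated the summed level of the group. PSA1 held 9.16% and 8.87% of the members' summed CPM in the manganese-adapted samples, against 36.7% and 40.9% in the control samples. With PSA1 counted, the 54 genes summed to 6965 and 6851 CPM in the manganese-adapted samples and 10008 and 10680.0 CPM in the control samples. Without it, the other 53 summed to 6327 and 6244 CPM in the manganese-adapted samples and 6339 and 6307 CPM in the control samples, so the groups differed by little outside PSA1. Within this near-constant sum the roles moved apart. The 9 oligosaccharyltransferase subunits summed to 795 and 766 CPM in the manganese-adapted samples and 1163 and 1152 CPM in the control samples. In contrast, the 22 Golgi mannosyltransferase genes summed to 3036 and 3075 CPM in the manganese-adapted samples and 2709 and 2578 CPM in the control samples. No test was run on these sums, and they are not adjusted for coding length.

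**Figure D2:**
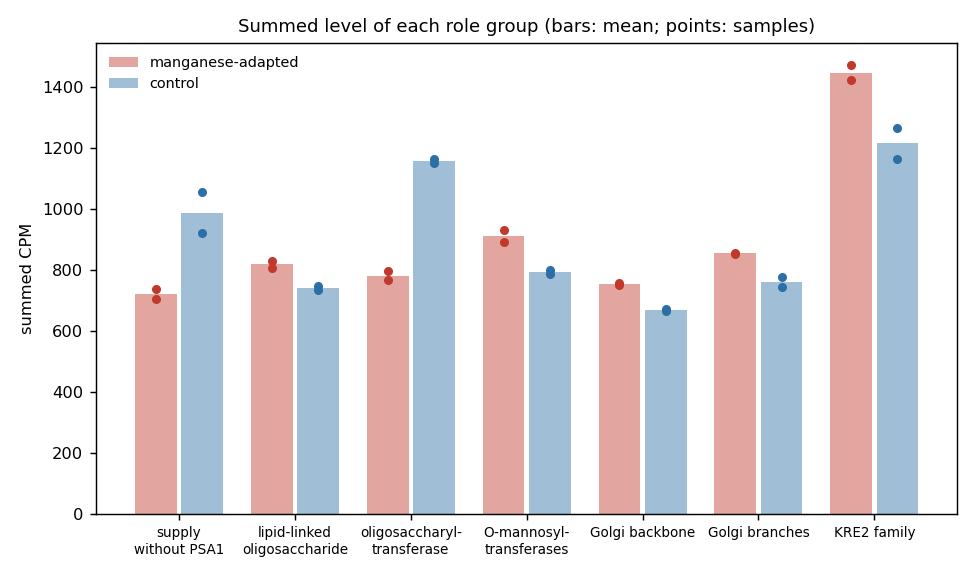
Summed CPM of each role group (vertical axis) in manganese-adapted (left bar) and control (right bar) samples; bars are means of 2 samples and points are the samples. The supply genes without PSA1 and oligosaccharyltransferase are lower in the manganese-adapted samples, and the other 5 role groups are higher.

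Genes that make GDP-mannose and bring it into the Golgi were lower in the manganese-adapted cells. GDA1, a Golgi enzyme that breaks down GDP, was higher, and YND1, with a related activity, did not pass.
Of 7 supply genes, 4 fell, 1 rose and 2 did not pass (median log2 fold change -0.35), where 34.9% of all features fell and 33.6% rose.
The median was -0.21 on leaving out control replicate 2.
PSA1 (chromosome IV, 355674 to 356759, minus strand), the pyrophosphorylase that makes GDP-mannose, had 638 and 607 CPM in the manganese-adapted samples, against 3669 and 4373 CPM in the control samples.
The means were 623 ± 21.4 CPM in manganese-adapted and 4021 ± 497 CPM in control samples (SD, n = 2 each), so control samples were 6.46-fold higher.
The groups lay far apart, with a log2 fold change of -2.68 ± 0.14 (limma adjusted p 1.43e-07).
SEC53 (chromosome VI, 43628 to 44392, minus strand), the phosphomannomutase one step earlier, had 158 and 159 CPM in the manganese-adapted samples, against 291 and 375 CPM in the control samples (log2 fold change -1.05 ± 0.11, limma adjusted p 1.56e-05).
The control samples differed more from each other than the manganese-adapted ones, but the groups did not overlap, as for 85.7% of all features.
PMI40, the isomerase that diverts fructose 6-phosphate to mannose 6-phosphate, fell less, with 123 and 119 CPM in manganese-adapted and 140.1 and 170.1 CPM in control samples (log2 fold change -0.35, limma adjusted p 0.0104).
PMI40 did not pass on leaving out control replicate 2 (-0.21, adjusted p 0.0649), on leaving out manganese-adapted replicate 1 (-0.37, adjusted p 0.0802) and on leaving out manganese-adapted replicate 2 (-0.33, adjusted p 0.108).
The fall was smallest for PMI40 and largest for PSA1, in the order of the steps; these differences between genes were not tested.

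VRG4 carries GDP-mannose into the Golgi in exchange for GMP, and GDA1 makes that GMP from the GDP that mannosyltransferases release. VRG4 had 74.7 and 71.5 CPM in the manganese-adapted samples, against 135 and 129 CPM in the control samples (log2 fold change -0.85 ± 0.08, limma adjusted p 8.54e-06). GDA1 had 144 and 132 CPM in the manganese-adapted samples, against 109 and 106 CPM in the control samples (log2 fold change 0.35 ± 0.08, limma adjusted p 0.00371). These partners moved in opposite directions, a difference that was not tested. The ratio of VRG4 to GDA1 per coding length restates these changes. It was 0.799 and 0.834 in the manganese-adapted samples and 1.9 and 1.87 in the control samples. The GDA1 call did not hold on leaving out manganese-adapted replicate 1 (0.29, adjusted p 0.0608), and its change was smaller after length adjustment (0.22). YND1, an apyrase with a related activity, had 85.8 and 90.3 CPM in manganese-adapted and 95.9 and 94.9 CPM in control samples and did not pass (-0.11, limma adjusted p 0.242). It passed as lower after length adjustment (-0.31, adjusted p 0.00596). DPM1, which makes the dolichol phosphate mannose used inside the ER, had 151 and 132 CPM in manganese-adapted and 149 and 181 CPM in control samples, with overlapping groups (-0.21, limma adjusted p 0.105). It passed as lower on leaving out control replicate 1 (-0.35, adjusted p 0.000994), after a like adjustment for GC content (-0.38, adjusted p 0.00942) and with the replicate numbers crossed as a block (adjusted p 0.0369).

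**Figure D3:**
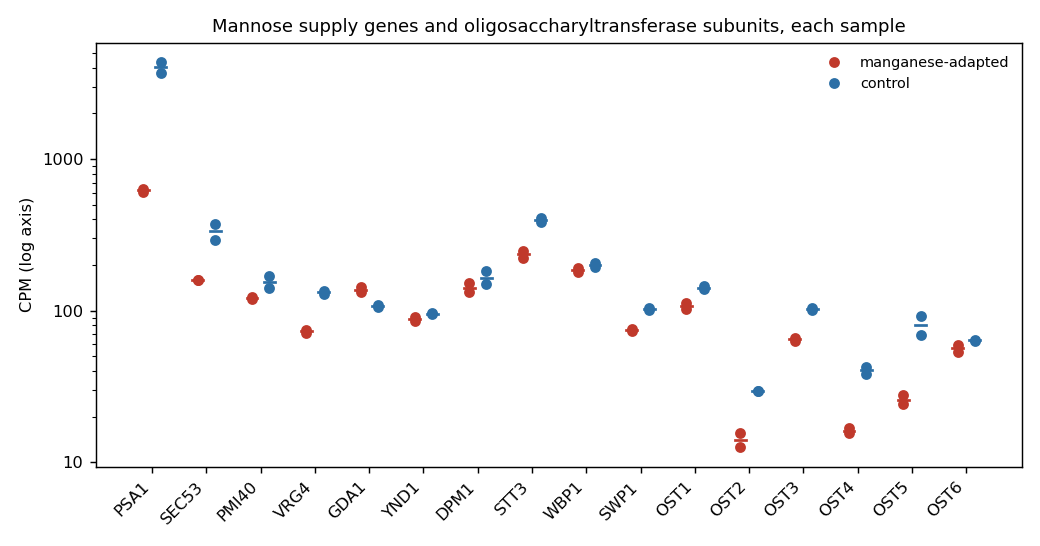
CPM (log axis) of the supply genes and oligosaccharyltransferase subunits in each sample, manganese-adapted to the left of control for each gene; lines are means of 2 samples. PSA1 lies at 607 to 638 CPM in the manganese-adapted samples and at 3669 to 4373 CPM in the control samples, and GDA1 is the only one of these 16 genes with both manganese-adapted samples above both control samples.

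The dolichol-linked oligosaccharide is built by the Alg enzymes in a fixed order, and their genes moved in both directions.
Of 10 genes, 4 rose, 2 fell and 4 did not pass (median log2 fold change 0.05), where 33.6% of all features rose and 34.9% fell.
After length adjustment the balance turned, with 3 higher, 4 lower and a median of -0.07.
Falls numbered 1 on leaving out either manganese-adapted sample or control replicate 2, and the median was 0.08 on leaving out control replicate 1.
ALG3 (chromosome II, 69751 to 71127, minus strand), which adds the first mannose on the lumenal side, had 61.8 and 55.4 CPM in the manganese-adapted samples, against 24.2 and 22.2 CPM in the control samples.
It showed the largest rise of the 54 genes, at 1.30 ± 0.11 (limma adjusted p 2.25e-06), from the lowest control level per coding length of the 10 ALG genes.
ALG7, the target of tunicamycin, starts the chain with GlcNAc phosphate, and had 69.3 and 71.9 CPM in the manganese-adapted samples, against 45.1 and 41.8 CPM in the control samples (log2 fold change 0.69 ± 0.09, limma adjusted p 7.24e-05).
ALG9, a later lumenal mannosyltransferase, had 179 and 171 CPM in manganese-adapted and 138 and 129 CPM in control samples (0.39, limma adjusted p 0.00176; 0.23 after length adjustment).
ALG11, which adds the last mannoses on the cytosolic side, rose by a small amount, with 103 and 103 CPM in manganese-adapted and 85.3 and 88.3 CPM in control samples (0.24, limma adjusted p 0.0227).
The ALG11 call did not hold on leaving out control replicate 1 (0.22, adjusted p 0.0571), on leaving out manganese-adapted replicate 1 (0.25, adjusted p 0.0987) and on leaving out manganese-adapted replicate 2 (0.24, adjusted p 0.105), in DESeq2 (adjusted p 0.0538) and after length adjustment (0.09, adjusted p 0.355).

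Both genes that fell in this group serve the glucose cap of the oligosaccharide. ALG5, which makes dolichol phosphate glucose, had 23.7 and 23.9 CPM in the manganese-adapted samples, against 41.9 and 43.1 CPM in the control samples (log2 fold change -0.81 ± 0.10, limma adjusted p 3.97e-05). ALG6, which adds the first glucose, had 134 and 125 CPM in manganese-adapted and 150.3 and 151 CPM in control samples (-0.22, limma adjusted p 0.0365). The ALG6 call did not hold on leaving out control replicate 2 (-0.22, adjusted p 0.053), on leaving out manganese-adapted replicate 1 (-0.27, adjusted p 0.0707) or on leaving out manganese-adapted replicate 2 (-0.17, adjusted p 0.207), with the replicate block (adjusted p 0.0523), in DESeq2 (0.0899) or with library size only (0.0524), and was larger after length adjustment (-0.37). ALG8, which adds the next glucose, stood at 70.9 and 72.1 CPM in manganese-adapted and 72.4 and 74.4 CPM in control samples (-0.04, limma adjusted p 0.705). The cytosolic mannosyltransferases ALG1 (-0.05) and ALG2 (-0.11) and the lumenal one ALG12 (0.14) did not pass either. After length adjustment, ALG8 (-0.21, adjusted p 0.0463) and ALG2 (-0.23, adjusted p 0.0481) passed as lower.

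Oligosaccharyltransferase, the ER complex that transfers the finished chain to proteins, was lower nearly throughout.
Of its 9 subunits 7 fell, none rose and 2 did not pass, with a median log2 fold change of -0.66, against a background of 34.9% lower over all features.
The 7 calls held under each alternative run, including each sample left out.
STT3, the catalytic subunit, had 248 and 223 CPM in the manganese-adapted samples, against 408 and 383 CPM in the control samples (log2 fold change -0.75 ± 0.09, limma adjusted p 4.13e-05).
Before length adjustment, the small membrane subunits had the largest falls.
OST5 (chromosome VII, 72749 to 73158, minus strand, 2 coding exons) had 24.1 and 27.6 CPM in the manganese-adapted samples, against 69.5 and 91.9 CPM in the control samples (log2 fold change -1.60 ± 0.13, limma adjusted p 2.68e-06).
OST4 (chromosome IV, 38487 to 38597, plus strand) had 15.5 and 16.7 CPM in the manganese-adapted samples, against 38.0 and 42.7 CPM in the control samples (log2 fold change -1.27 ± 0.11, limma adjusted p 4.06e-06).
OST2 (chromosome XV, 516449 to 516841, minus strand) had 12.5 and 15.5 CPM in the manganese-adapted samples, against 29.3 and 29.4 CPM in the control samples (log2 fold change -1.02 ± 0.13, limma adjusted p 4.09e-05).
In each of these genes both manganese-adapted samples lay below both control samples. Groups that do not overlap, in either direction, were found for 85.7% of all features.
SWP1 (-0.46, and -0.30 after length adjustment) and OST1 (-0.40), larger subunits of the complex, fell by less.

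The complex carries either OST3 or OST6, alternative subunits with an oxidoreductase fold; OST3 passed the test as lower and OST6 did not. OST3 had 66.4 and 63.2 CPM in manganese-adapted and 101 and 104 CPM in control samples (-0.66 ± 0.09, limma adjusted p 5.73e-05). OST6 had 59.3 and 53.4 CPM in manganese-adapted and 63.9 and 63.2 CPM in control samples (-0.17 ± 0.09, limma adjusted p 0.12), a change that did not pass. Per coding length, the ratio of OST3 to OST6 was 1.06 and 1.12 in the manganese-adapted samples and 1.5 and 1.56 in the control samples, and the groups did not overlap; the difference between the genes' changes was not tested. WBP1, another subunit, had 181 and 192 CPM in manganese-adapted and 206 and 195 CPM in control samples and did not pass (-0.10, limma adjusted p 0.289). Against STT3, its ratio per coding length was 1.21 and 1.44 in the manganese-adapted samples and 0.842 and 0.85 in the control samples. This ratio restates the changes of WBP1 and STT3, and their difference was not tested.

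The small subunits have the shortest coding sequences of the 54 genes, and in these libraries short genes as a class were lower.
OST4 is the shortest, with 111 coding bases; its whole coding sequence, read from the R64 genome, is shown to make that length visible, with the start and stop codons in capitals.
OST4 (chrIV:38487-38597, plus strand): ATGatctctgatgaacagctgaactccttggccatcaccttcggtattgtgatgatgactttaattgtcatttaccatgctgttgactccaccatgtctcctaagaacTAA
Among all tested features with up to 450 coding bases, 721 in number, the median log2 fold change was -0.59, against 0.30 for the 629 features over 2700 bases.
After length adjustment, the log2 fold change was -0.41 for OST4, -0.97 for OST5 and -0.52 for OST2.
These 3 still passed (limma adjusted p 0.00867, 5.29e-05 and 0.00217).
STT3, the longest subunit at 2157 coding bases, fell although features of its length class (1800 to 2700 bases) had a median of 0.28.
After length adjustment the order changed in part. STT3 (-0.98) and OST5 (-0.97) had the largest falls of the 9 subunits, at nearly the same size. OST4 came after OST3 (-0.60) and OST1 (-0.50). Differences between subunits were not tested.
Without the 3 short subunits, the other 6 had a median log2 fold change of -0.43, and 4 of them fell.

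**Figure D4:**
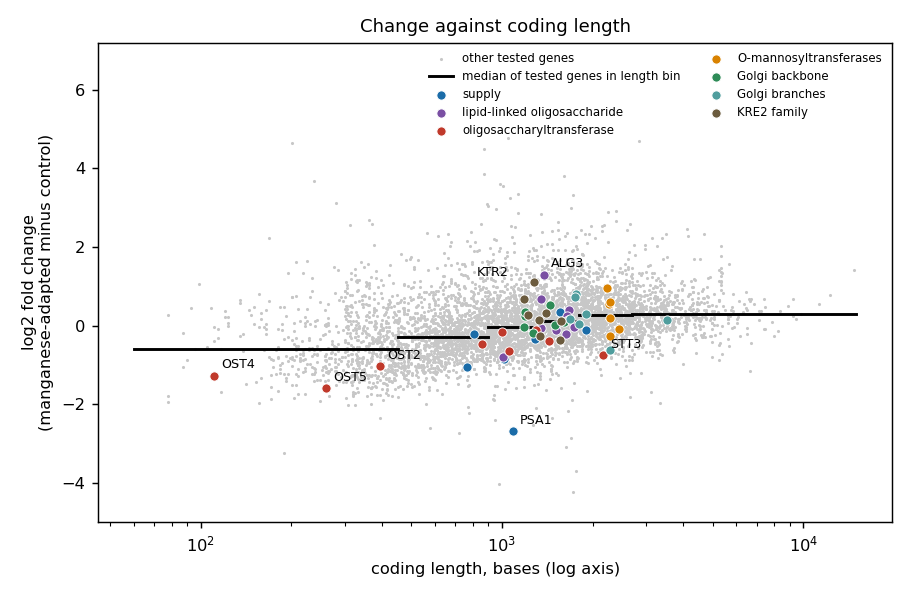
Log2 fold change (vertical axis, manganese-adapted minus control) against coding length (log axis) for the tested genes with a coding length, with members in colour and black lines at the median of tested genes in each length bin. The medians run from -0.59 in the shortest bin to 0.30 in the longest; OST4, OST5 and OST2 lie below the median of the shortest bin, and STT3 and PSA1 lie below those of their own bins.

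The protein O-mannosyltransferases divided by isoform: the less abundant Pmt genes rose and the main ones did not. Of 6 genes, 3 rose, 1 fell and 2 did not pass (median log2 fold change 0.38), where 33.6% of all features rose. After length adjustment 3 were higher and 2 lower, with a median of 0.13. PMT5, a minor partner in the complexes of this family, had 115 and 117 CPM in the manganese-adapted samples, against 65.5 and 53.4 CPM in the control samples (log2 fold change 0.96 ± 0.10, limma adjusted p 1.64e-05). PMT6 had 119.9 and 118 CPM in the manganese-adapted samples, against 79.1 and 76.2 CPM in the control samples (log2 fold change 0.61 ± 0.08, limma adjusted p 7.52e-05). PMT3 had 103 and 89.5 CPM in the manganese-adapted samples, against 66.7 and 62.9 CPM in the control samples (log2 fold change 0.56 ± 0.10, limma adjusted p 0.000404). Both manganese-adapted samples lay above both control samples for these 3 genes, where 85.7% of all features had groups that did not overlap. After length adjustment PMT6 (0.37) and PMT3 (0.32) passed at a smaller size. PMT2, the most abundant of the family per coding length, had 249.9 and 235 CPM in manganese-adapted and 214 and 209 CPM in control samples (0.20, limma adjusted p 0.058), and passed as higher with library size only (adjusted p 0.0334). PMT1, its usual partner, had 203 and 200.1 CPM in manganese-adapted and 216 and 214 CPM in control samples (-0.09, limma adjusted p 0.33), and passed as lower after length adjustment (-0.35, adjusted p 0.00209). PMT4, which works as a homodimer on membrane-anchored proteins, fell, with 140.2 and 131 CPM in manganese-adapted and 158 and 170.1 CPM in control samples (-0.28, limma adjusted p 0.0148). The PMT4 call did not hold on leaving out manganese-adapted replicate 1 (-0.33, adjusted p 0.0507) and on leaving out manganese-adapted replicate 2 (-0.23, adjusted p 0.129), and its fall was larger after length adjustment (-0.52).

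Taken as shares of the family, PMT1, PMT2 and PMT4 held 63.7% and 63.5% of the summed CPM in the manganese-adapted samples, against 73.6% and 75.5% in the control samples. The ratio of PMT5 to PMT1 per coding length was 0.624 and 0.642 in the manganese-adapted samples and 0.334 and 0.274 in the control samples. PMT3 against PMT2, its closest relative with 69.6% identical bases in the aligned coding sequence, stood at 0.413 and 0.384 in the manganese-adapted samples and 0.314 and 0.303 in the control samples. In both pairs the minor isoform gained on the major one. The groups did not overlap in these ratios, which restate the changes given above, and the difference within each pair was not tested.

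**Figure D5:**
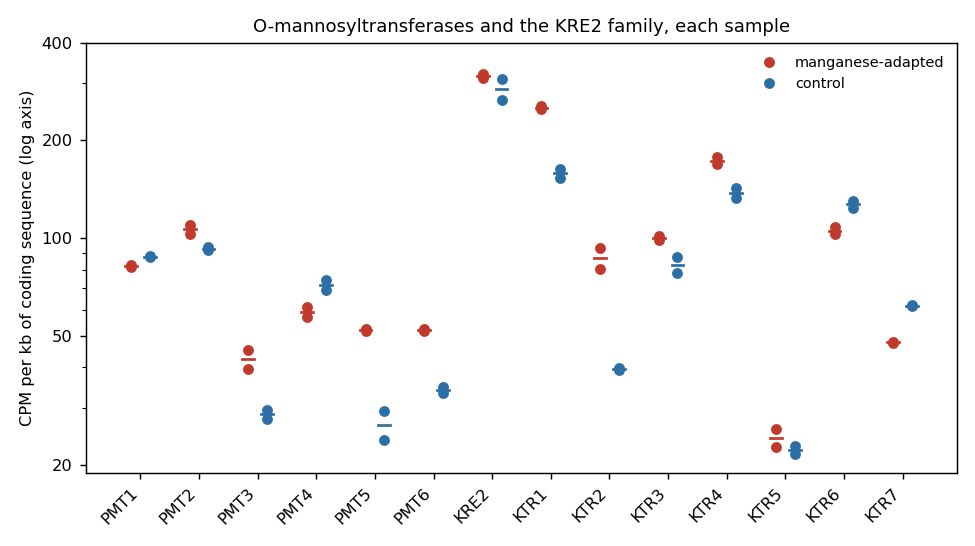
CPM per kb of coding sequence (log axis) of the O-mannosyltransferases and the KRE2 family in each sample, manganese-adapted to the left of control; lines are means of 2 samples. PMT3, PMT5, PMT6, KTR1 and KTR2 are clearly higher in the manganese-adapted samples, and KTR7 is lower.

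In the Golgi, the genes that build the long alpha-1,6-linked mannose backbone of N-linked chains rose modestly or did not pass. Of 7 genes, 3 rose, none fell and 4 did not pass (median log2 fold change 0.10), where 33.6% of all features rose. The median turned to -0.03 after length adjustment, with 1 gene lower, and was 0.07 on leaving out control replicate 1. OCH1, which adds the first backbone mannose, had 114 and 116 CPM in the manganese-adapted samples, against 80.4 and 78.2 CPM in the control samples (log2 fold change 0.53 ± 0.08, limma adjusted p 0.000193). MNN9, shared by both mannan polymerase complexes and the most abundant of the 7 per coding length, had 147 and 146 CPM in the manganese-adapted samples, against 113 and 119 CPM in the control samples (log2 fold change 0.33 ± 0.08, limma adjusted p 0.00385). HOC1, a relative of OCH1 in the later complex, had 127 and 125 CPM in manganese-adapted and 109 and 102 CPM in control samples (0.25, limma adjusted p 0.0183). The HOC1 call did not hold on leaving out control replicate 2 (0.21, adjusted p 0.0621), on leaving out manganese-adapted replicate 1 (0.25, adjusted p 0.104) and on leaving out manganese-adapted replicate 2 (0.26, adjusted p 0.0854). MNN9's other partners did not pass. VAN1, its partner in the first complex, had 114 and 115 CPM in manganese-adapted and 104 and 109 CPM in control samples (0.10). ANP1, MNN10 and MNN11, its partners beside HOC1 in the later one, had log2 fold changes of 0.03, -0.03 and -0.18. MNN11 had 65.6 and 60.6 CPM in manganese-adapted and 71.1 and 72.0 CPM in control samples. MNN11 passed as lower after length adjustment (-0.22, adjusted p 0.0412).

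The branching enzymes included one clear fall, of the enzyme that caps the branches. Of 7 genes, 3 rose, 1 fell and 3 did not pass (median log2 fold change 0.16), where 33.6% of all features rose and 34.9% fell. The median was 0.0039 after length adjustment and 0.10 on leaving out manganese-adapted replicate 2. MNN1, which adds terminal alpha-1,3-linked mannose to N- and O-linked chains, had 124 and 114 CPM in the manganese-adapted samples, against 188 and 182 CPM in the control samples (log2 fold change -0.63 ± 0.08, limma adjusted p 6.98e-05). Its relatives went the other way or did not pass. MNT4, a member of the MNN1 family, had 49.3 and 47.4 CPM in the manganese-adapted samples, against 28.2 and 29.8 CPM in the control samples (log2 fold change 0.72 ± 0.10, limma adjusted p 8.32e-05). MNT3, an alpha-1,3-mannosyltransferase of O-linked chains, had 96.5 and 103 CPM in manganese-adapted and 85.1 and 76.6 CPM in control samples (0.30, limma adjusted p 0.0124). The MNT3 call did not hold on leaving out manganese-adapted replicate 1 (0.35, adjusted p 0.0524), on leaving out manganese-adapted replicate 2 (0.26, adjusted p 0.119) and after length adjustment (0.10, adjusted p 0.32). MNT2, which acts with it, had 74.5 and 81.6 CPM in manganese-adapted and 70.6 and 68.4 CPM in control samples (0.16, limma adjusted p 0.126) and passed as higher after adjustment for GC content (0.20, adjusted p 0.0415). Among the alpha-1,2 branching enzymes, MNN5, which adds the second mannose of a branch, had 231 and 224 CPM in the manganese-adapted samples, against 139 and 122 CPM in the control samples (log2 fold change 0.80 ± 0.09, limma adjusted p 2.19e-05). MNN2, which adds the first, had 161 and 150.1 CPM in manganese-adapted and 150.2 and 153 CPM in control samples, with overlapping groups (0.04, limma adjusted p 0.714). The ratio of MNN5 to MNN2 per coding length was 1.46 and 1.52 in the manganese-adapted samples and 0.945 and 0.812 in the control samples. MNN5 thus lay above MNN2 in manganese-adapted samples and below it in control samples. This ratio restates the changes given above, and the difference between the genes was not tested. MNN4, needed for mannosylphosphate addition, did not pass (0.13, limma adjusted p 0.194).

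The KRE2 family of alpha-1,2-mannosyltransferases and related enzymes rose in part.
Of 8 genes, 4 rose, 2 fell and 2 did not pass (median log2 fold change 0.21), where 33.6% of all features rose.
Rises numbered 2 on leaving out manganese-adapted replicate 2, falls numbered 1 without either manganese-adapted sample, and the median was 0.14 on leaving out control replicate 2.
KTR2 (chromosome XI, 557677 to 558954, plus strand), which acts on N-linked chains, had 103 and 119 CPM in the manganese-adapted samples, against 50.8 and 50.2 CPM in the control samples (log2 fold change 1.12 ± 0.10, limma adjusted p 3.3e-06).
KTR1, which acts on both kinds of chain, had 294 and 301 CPM in the manganese-adapted samples, against 193 and 181 CPM in the control samples (log2 fold change 0.67 ± 0.08, limma adjusted p 4.47e-05).
In both genes the manganese-adapted samples lay above both control samples, where 85.7% of all features had groups that did not overlap.
KTR4, a putative member, had 236 and 248 CPM in manganese-adapted and 199 and 185 CPM in control samples (0.33, limma adjusted p 0.00521), and its call did not hold on leaving out manganese-adapted replicate 2 (0.30, adjusted p 0.0635).
KTR3, which overlaps in function with KTR1, had 120.2 and 123 CPM in manganese-adapted and 106 and 95.0 CPM in control samples (0.28, limma adjusted p 0.0168).
The KTR3 call did not hold on leaving out control replicate 2 (0.20, adjusted p 0.0838), on leaving out manganese-adapted replicate 1 (0.29, adjusted p 0.084) and on leaving out manganese-adapted replicate 2 (0.26, adjusted p 0.116).
KRE2, also known as MNT1, was the most abundant of the family at 317 CPM per kb in manganese-adapted samples and 288 CPM per kb in control samples.
It had 415 and 427 CPM in manganese-adapted and 411 and 354 CPM in control samples (0.14, limma adjusted p 0.228), and it passed as higher on leaving out control replicate 1 (0.25, adjusted p 0.0446).
KTR7 fell, with 74.6 and 74.1 CPM in the manganese-adapted samples, against 96.3 and 96.5 CPM in the control samples (log2 fold change -0.37 ± 0.08, limma adjusted p 0.00236).
KTR6, the mannosylphosphate transferase that works with MNN4, also fell, with 138 and 145 CPM in manganese-adapted and 175 and 167 CPM in control samples (-0.27, limma adjusted p 0.0137), a call lost on leaving out manganese-adapted replicate 1 (-0.24, adjusted p 0.108) and on leaving out manganese-adapted replicate 2 (-0.30, adjusted p 0.0546).
KTR5 was the least abundant at 24.3 CPM per kb in manganese-adapted samples and 22.3 CPM per kb in control samples and did not pass (0.11).

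Over the 22 Golgi mannosyltransferase genes of these groups, 10 rose and 3 fell (median log2 fold change 0.15), against 33.6% higher and 34.9% lower over all features. The count of rises was 6 on leaving out manganese-adapted replicate 2, 7 on leaving out manganese-adapted replicate 1 and 8 on leaving out control replicate 2, and 6 genes of the 22 rose in every alternative, namely OCH1, MNN9, MNN5, MNT4, KTR1 and KTR2. After length adjustment 9 were higher and 4 lower, with a median of 0.04. Members of a family are related in sequence, with 61.1% to 70.9% identical bases in 56 pairwise alignments of coding sequences, but none of the 50-base windows in any of the 54 coding sequences occurs elsewhere in the R64 genome. None of the 54 genes overlaps another gene in that annotation.

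The transporters that set Golgi ion levels moved in opposite directions. PMR1, the pump that brings Mn2+ and calcium into the Golgi, had 192 and 195 CPM in the manganese-adapted samples, against 149 and 149 CPM in the control samples (log2 fold change 0.38 ± 0.08, limma adjusted p 0.00162). GDT1, a Golgi transporter of calcium and manganese, had 54.7 and 50.7 CPM in the manganese-adapted samples, against 89.3 and 90.3 CPM in the control samples (log2 fold change -0.76 ± 0.09, limma adjusted p 2.69e-05). After length adjustment PMR1 did not pass (0.09, adjusted p 0.336) and GDT1 still fell (-0.59, adjusted p 0.000105).

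Of 31 other genes of the pathway, 30 were found under their symbols and tested. Of these, 11 rose, 5 fell and 14 did not pass (median log2 fold change 0.07), where 33.6% of all features rose and 34.9% fell. The counts were 5 and 1 on leaving out manganese-adapted replicate 1, and 8 and 2 on leaving out manganese-adapted replicate 2; falls numbered 3 on leaving out control replicate 2 and with library size only, and 2 in DESeq2. GPI18, a mannosyltransferase of the GPI anchor, had 181 and 224 CPM in the manganese-adapted samples, against 65.0 and 60.1 CPM in the control samples (log2 fold change 1.67 ± 0.11, limma adjusted p 5.14e-07). SRT1, the minor cis-prenyltransferase of dolichol synthesis, had 27.7 and 28.0 CPM in the manganese-adapted samples, against 9.77 and 8.86 CPM in the control samples (log2 fold change 1.49 ± 0.12, limma adjusted p 2.19e-06). RER2, the main one, had 43.7 and 47.6 CPM in manganese-adapted and 44.3 and 44.2 CPM in control samples and did not pass (0.04). CWH41 and ROT2, genes of ER glucosidases that trim the transferred chain, rose. CWH41 had 140.4 and 139 CPM in manganese-adapted and 104 and 99.9 CPM in control samples (0.45, limma adjusted p 0.000543). ROT2 had 119.8 and 109.8 CPM in manganese-adapted and 84.4 and 71.6 CPM in control samples (0.56, limma adjusted p 0.000588). Both are long, at 2502 and 2865 coding bases, and features of their length classes had medians of 0.28 and 0.30. Their length-adjusted values are not given here. GTB1, another glucosidase subunit gene of the list, did not pass (0.07, limma adjusted p 0.506). YUR1, the remaining member of the KRE2 family, rose (0.35, limma adjusted p 0.00485). It had 69.3 and 66.6 CPM in manganese-adapted and 53.3 and 52.9 CPM in control samples. The other genes of the list that rose were MCD4 (0.84), CNE1, PBN1, MNL1, MNS1 and SEC59. The 5 that fell were GNA1 (-0.46), GPI10 (-0.30), DFG10 (-0.30), PCM1 (-0.25) and ALG14 (-0.24). Of 12 ER folding genes, 11 were found. Of these, 6 rose, 1 fell and 4 did not pass (median log2 fold change 0.25), against the same 33.6% and 34.9% over all features. KAR2, the ER Hsp70 chaperone, rose most of them (log2 fold change 0.88 ± 0.12, limma adjusted p 6.21e-05). It had 1489.7 and 1545 CPM in the manganese-adapted samples, against 835 and 808 CPM in the control samples. Its direction was opposite to that of oligosaccharyltransferase in the same compartment, a contrast that was not tested. KAR2 is also long, at 2049 coding bases, and features of its length class (1800 to 2700 bases) had a median of 0.28. The length-adjusted value of KAR2 is not given here. JEM1 (0.22), EUG1 (0.17), SIL1 (0.05) and MPD2 (-0.08) did not pass. The single fall, SCJ1 (-0.28), was lost in DESeq2 and without either manganese-adapted replicate or control replicate 1.

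Promoter windows of 300 bases before the annotated coding start were searched on both strands for 4 short motifs. CNCGAAA, the cell cycle box bound by SBF, was found in 15 of 54 members (27.8%) and in 14.5% of 6020 promoters. ACGCGT, the box bound by MBF, was found in 3 members (5.56%) and in 3.47% of promoters. AGGGG, the stress response element, was found in 8 members (14.8%) and in 22.2% of promoters, and CAGCGTG, the core of an unfolded protein response element, in 1 member (1.85%) and in 1.23%. Matches of different motifs did not overlap in any member. The MBF box stood in VRG4, OST2 and OST3, which all fell, and the SBF box in 7 of the 17 that fell, 4 of the 18 that rose and 4 of the 19 that did not pass. AGGGG stood in 4 of the genes that rose, in none of those that fell and in 4 that did not pass. Of all features, 34.9% fell and 33.6% rose. How often all features that fell or rose carry each motif was not counted. These splits therefore have no background, and a link between motif and direction was not tested. The PSA1 window holds none of the 4 motifs, which says only that these letters are not in that window.

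The MBF boxes of the 3 genes that fell are shown first, and then the SBF boxes of STT3, OST5, VRG4 and SEC53. These 4 were picked from the 7 members with an SBF box that fell. No window of a gene that rose is among them, although ALG7, PMT5, PMT6 and OCH1 rose and carry the SBF box. Each line gives the R64 position and the sequence on the gene's strand, with the motif or its reverse complement in capitals.
VRG4 (chrVII:76616-76643, plus strand): acgtcgcctaaACGCGTaatgaatcgca
OST2 (chrXV:517120-517141, minus strand): aaaacACGCGTatacgccagcc
OST3 (chrXV:481991-482018, plus strand): cactgaaccacACGCGTccgcatcaaac
STT3 (chrVII:452231-452259, plus strand): gacggttgcttTTTCGCGctggtcgagaa
OST5 (chrVII:73259-73287, minus strand): cttttctttgaCGCGAAAtttgaaattgc
VRG4 (chrVII:76730-76758, plus strand): aaaaattgaaaTTTCGCGatccgaacaaa
SEC53 (chrVI:44595-44623, minus strand): tcgtcatgagaCACGAAAagtggataaaa
A match is a description of the letters and not a measured binding site.

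In the authors' deposited table, 18 members were higher, 16 lower and 20 not past a false discovery rate of 0.05. That table and the limma test differed in the call of 1 gene, ALG6, which has a false discovery rate of 0.0594 in the authors' deposited table.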

How the data were processed

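The submitters' processing notes name TopHat2 2.0.13, Bowtie, cutadapt 1.8.1, edgeR and HTSeq, and the build sacCer3. What each did, the annotation and whether strand was used in counting were not given in the sources used here. Without a strand setting, reads of unannotated antisense RNA cannot be separated. Libraries were made from total RNA with a TruSeq RNA kit, per the labels' protocols.

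The deposited values of the 4 samples are CPM, although the file headers call them counts: divided by the value of 1 read, 100% came out whole to within 0.001 reads, so whole reads were recovered. A floor of 3 reads is 0.212 to 0.237 CPM, for counting error only. Beside them the authors deposited their own log2 fold changes, p-values and false discovery rates.

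Since the values are CPM, limma 3.58.1 (limma-trend, R 4.3.3) was run on log2(CPM + 1) for the 6296 features that reached 1 CPM in 2 samples, with Benjamini-Hochberg adjustment over all of them and 2 residual degrees of freedom. On the recovered reads, the edgeR 4.0.16 quasi-likelihood test and DESeq2 1.42.0 were alternatives, with the scalings, filters, pseudocounts (0.1 and 10), leave-outs, blocks and trend removals named in the text; the trends on coding length and GC content were fitted over the 5769 features with a coding sequence in the R64 annotation, to which 6047 of 7126 features matched by locus tag. Promoter windows were cut from the genome, and protein features were not analysed here. Sequences and positions are from RefSeq R64, the assembly behind sacCer3; lengths are R64 coding lengths.

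The members and lists were chosen with earlier results of these data known. All members are named. Values in every sample are given at least for the 4 with the largest absolute change and the most abundant per coding length in each role group.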

Additional observations from a re-analysis of the deposited data

How the results depend on the processing

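The counts of members called, 18 higher and 17 lower, stayed within 1.5 times under every alternative run: 16 to 19 higher and 16 to 22 lower over the settings that keep all 4 samples, and 13 to 18 of each over the samples left out. No member changed direction among those called. In all, 12 of the 18 rises and 13 of the 17 falls were called under every alternative. The recovered reads gave 18 higher and 17 lower in the edgeR quasi-likelihood test. The median log2 fold change of the members, -0.001, was 0.021 with library size only and -0.092 after length adjustment, and ran from -0.02 to 0.021 over samples left out.

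The deviations of same-numbered samples correlated at -0.18, so the numbers do not pair the samples. The replicate block gave 18 higher and 16 lower. The crossed pairing, chosen after seeing the data, gave 18 and 18. With 2 samples per group, 1 sample left out leaves a lone sample that is assumed to vary like the other group. Leaving out a manganese-adapted sample cost most calls, 9 in either case, and each call lost there was of a change under 1.5-fold. Depth limited little: no member had fewer than 170 reads in a library. No alternative listed was left unrun.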
